A study of Mus musculus with 4 samples.

Results

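The genes described here are 9 neuronal genes: Nefl, Nefm and Prph, which encode intermediate filament proteins of axons, Tubb3 and Stmn2, which encode a tubulin and a tubulin-binding protein, Elavl3 and Elavl4, which encode RNA-binding proteins, Gap43, which encodes a protein of growth cones, and Th, which encodes an enzyme of catecholamine synthesis. They were read from every non-control probe whose RefSeq accession is a transcript of one of these genes, which gave 10 probes for the 9 genes among 55681 probes on the array. The 9 genes belonged to 25083 genes and unnamed sequences tested, 15090 of them named. Gene expression was measured on 4 one-colour Agilent arrays of total RNA from embryonic mouse kidneys at E13.5. Of these, 2 arrays carried RNA of Sall1 knockout kidneys and 2 carried RNA of control kidneys. All samples came from a mixed background of 129 and C57BL/6 mice, and tamoxifen was given at E12.5, 24 hours before collection. Tamoxifen activates CreER, a Cre recombinase fused to part of an oestrogen receptor, which here deletes Sall1, a zinc finger transcription factor gene of the embryonic kidney. The treatment text of all 4 samples names Sall1CreER kidneys, while the titles name CreER for the knockout samples and flox for the controls, so an effect of CreER cannot be told apart from that of the deletion. The labels do not say which cells carry CreER, or whether a sample was 1 embryo or a pool, and p-values here cover the spread between these samples alone.

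Sall1 itself had log2 signals of 1.03 and 1.06 on the knockout arrays, against 1.79 and 1.80 on the control arrays, where each signal was divided by its array's 75th percentile. The groups did not overlap, and knockout kidneys had a 1.68-fold lower signal that did not pass in limma (adjusted p = 0.125). Whether the Sall1 probe reads the deleted exons was not settled here, so it may check nothing. All 10 genes listed as defining fetal kidney, among them Pax2, Six2, Wt1 and Ret, were well above background on all 4 arrays.

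Neurofilament light and medium chains assemble with peripherin and other subunits into the filaments that set the calibre of axons, and class III beta tubulin forms part of axonal microtubules, whose turnover stathmin proteins control. ELAV-like proteins bind transcripts of differentiating neurons, and GAP43 is carried to the tips of growing axons. In the kidney several of these proteins mark nerves, mainly sympathetic fibres whose cell bodies lie in ganglia outside the organ. Tyrosine hydroxylase catalyses the first step of transmitter synthesis in these fibres. Which cells gave the RNA measured here was not tested. In bulk RNA, fewer cells of a type and less RNA per cell cannot be told apart.

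RefSeq promoter sequences of assembly GRCm38.p6 were at hand for 5 of the 9 genes, namely Tubb3, Elavl3, Elavl4, Prph and Th. Those of Elavl3, Tubb3 and Th are shown to place the genes: Elavl3 and Tubb3 are the ones whose control arrays lay furthest apart, and Th is the autonomic enzyme gene. They were picked with these signals known, and no relation between sequence and signal was tested. Each window holds the 250 bases before the annotated start, at chr9:22052024-22052273 on the minus strand for Elavl3, chr8:123411303-123411552 on the plus strand for Tubb3 and chr7:142899996-142900245 on the minus strand for Th. Capitals mark matches, on either strand, to the GC box GGGCGG, the CCAAT box CCAAT, the TATA box TATAAA and the cAMP response core TGACGT.
Elavl3: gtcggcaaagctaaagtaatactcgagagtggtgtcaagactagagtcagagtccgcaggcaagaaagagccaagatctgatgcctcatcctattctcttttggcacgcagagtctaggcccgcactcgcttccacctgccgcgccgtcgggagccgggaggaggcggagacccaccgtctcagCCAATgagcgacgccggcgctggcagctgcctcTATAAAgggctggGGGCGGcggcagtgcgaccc
Tubb3: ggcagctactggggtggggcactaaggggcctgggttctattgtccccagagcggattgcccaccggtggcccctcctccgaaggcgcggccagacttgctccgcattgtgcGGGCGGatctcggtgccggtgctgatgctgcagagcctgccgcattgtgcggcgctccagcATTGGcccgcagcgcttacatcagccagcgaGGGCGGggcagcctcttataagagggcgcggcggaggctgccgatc
Th: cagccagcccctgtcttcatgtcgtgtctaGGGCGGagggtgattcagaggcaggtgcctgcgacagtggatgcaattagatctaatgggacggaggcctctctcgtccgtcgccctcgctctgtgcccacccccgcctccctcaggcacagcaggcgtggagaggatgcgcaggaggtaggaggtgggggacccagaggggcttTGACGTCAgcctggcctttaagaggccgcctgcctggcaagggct
In the Elavl3 window a TATA box match began 33 bases before the start, a CCAAT match 66 bases before it and a GC box match 20 bases before it. The Tubb3 window held GC box matches that began 138 and 46 bases before the start and 1 CCAAT match on the opposite strand. The Th window held 1 GC box match and the cAMP response core on both strands, 45 and 43 bases before the start, which overlap as a palindrome. Among 32851 mouse promoter windows of the same length, 32.7% held the GC box, 33.8% the CCAAT box, 12.4% the TATA box and 6.47% the cAMP response core. The Prph window held a GC box match and a TATA box match too. Windows of 3 of the 4 Elavl4 starts held CCAAT matches, and that of the other start held a cAMP response core match. A match describes letters only.

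Both neurofilament genes among the 9 had lower signals in the knockout kidneys. Nefh, the heavy chain gene outside the 9, differed by 0.12 on the log2 scale, and its groups overlapped. Nefl, which encodes the light chain, had processed signals of 224 and 179 on the knockout arrays, against 364 and 392 on the control arrays, in arbitrary units before scaling. On the scaled log2 scale its signal was -1.25 and -1.55 in knockout kidneys and -0.72 and -0.49 in control kidneys. The groups did not overlap, and the gap between the groups was wider than the gap between arrays of a group. Nefl differed by -0.80 ± 0.15 on the log2 scale (SE, n = 2 per group), or 1.74-fold lower, with a 95% confidence interval of -1.21 to -0.38. It had the largest difference of the 9 genes and did not pass over all genes tested in limma (adjusted p = 0.26). With a trended and robust variance prior, limma put the adjusted p at 0.0467.

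Nefm, which encodes the medium chain, is printed 10 times on each array and so shows the technical spread of a probe beside the spread between samples. The mean processed signal over its spots was 88.7 and 84.2 on the knockout arrays, against 127 and 136 on the control arrays. Single spots ranged over 80.3 to 96.5 and over 68.1 to 94.8 on the knockout arrays, and over 121 to 135 and over 124 to 152 on the control arrays. After scaling, the brightest knockout spot, at 0.181 of the 75th percentile, stayed below the dimmest control spot, at 0.202. The coefficient of variation between spots was 6.03% and 9.82% on the knockout arrays and 4.27% and 7.09% on the control arrays, where 1 outlier spot of control replicate 1 was left out. Spots of 1 array share their RNA and are not replicates of a condition. Over samples Nefm differed by -0.49 ± 0.098 on the log2 scale (SE, n = 2 per group), or 1.41-fold lower (95% confidence interval -0.77 to -0.21), and it did not pass in limma (adjusted p = 0.277). With normexp background correction the difference was -0.27.

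**Figure D1:**
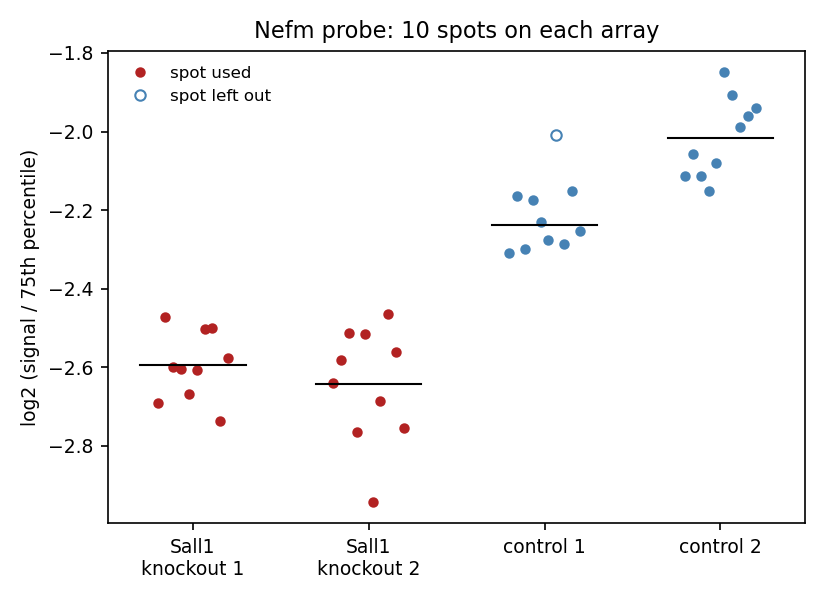
Log2 signal of each of the 10 Nefm spots per array over the array 75th percentile, for the Sall1 knockout arrays (red) and the control arrays (blue); lines are means of the spots used, and the open point is an outlier spot left out. The spots used of both knockout arrays lie below all those of both control arrays.

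Prph, the peripherin gene of peripheral neurons, did not separate the groups. Its log2 signal was -3.76 and -3.97 in knockout kidneys and -3.79 and -4.12 in control kidneys, so that the groups overlapped. The log2 difference was 0.091 ± 0.15 (SE) with a 95% confidence interval of -0.34 to 0.52 (limma, adjusted p = 0.81). It turned to -0.071 without control replicate 2 and to -0.014 without Sall1 knockout replicate 1. The interval leaves room for a difference of either sign.

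Of the microtubule genes, Stmn2, which encodes a stathmin of growing axons, had processed signals of 220 and 227 on the knockout arrays, against 353 and 316 on the control arrays. Its log2 signal was -1.28 and -1.20 in knockout kidneys and -0.77 and -0.80 in control kidneys. The arrays of each group lay close together and far from the other group. Stmn2 differed by -0.46 ± 0.062 on the log2 scale (SE, n = 2 per group), or 1.38-fold lower, with a 95% confidence interval of -0.64 to -0.28 (limma, adjusted p = 0.207). With the trended and robust prior, limma put the adjusted p at 0.0531.

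Tubb3, the neuronal beta tubulin gene, depended on a single control array. Its log2 signal was -2.60 and -2.77 in knockout kidneys and -2.88 and -1.74 in control kidneys, and processed signals were 88.2 and 76.9 against 81.4 and 165. The knockout values lay between the control values, which differed by 1.14. The log2 difference was -0.37 ± 0.42 (SE), with a 95% confidence interval of -1.57 to 0.82 (limma, adjusted p = 0.723). It was -0.95 without control replicate 1 and 0.20 without control replicate 2.

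The ELAV-like genes split in the same way. Elavl4 has 2 probes, and both were lower in the knockout kidneys with no overlap of the groups. The brighter probe, A_55_P1990314, had log2 signals of 0.064 and 0.032 in knockout kidneys, against 0.16 and 0.22 in control kidneys. Its log2 difference was -0.14 ± 0.059 (SE, n = 2 per group; limma, adjusted p = 0.436). The dimmer probe, A_55_P1990309, had log2 signals of -2.62 and -2.61 in knockout kidneys, against -2.08 and -2.14 in control kidneys. Its log2 difference was -0.51 ± 0.062 (SE) in a fit over all probes, or 1.42-fold lower, with a 95% confidence interval of -0.68 to -0.33 (limma, adjusted p = 0.213). The interval of the brighter probe was -0.31 to 0.02, and the difference between the probes was not tested. The mean over both probes differed by -0.33 ± 0.054 (SE; limma, adjusted p = 0.241). The dimmer probe was taken as an alternative for the gene after the data were seen. Of Elavl4, 4 starts are listed in RefSeq, and the transcripts that each probe reads were not settled here.

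Elavl3 had the widest spread of the 9 genes. Its log2 signal was -3.68 and -3.71 in knockout kidneys and -4.83 and -3.14 in control kidneys, and processed signals were 41.7 and 39.9 against 21.1 and 62.3. The knockout arrays agreed closely and lay between the control arrays, which differed by 1.69. The log2 difference was 0.29 ± 0.62 (SE), with a 95% confidence interval of -1.46 to 2.03 (limma, adjusted p = 0.853). It turned to -0.56 without control replicate 1 and was 1.13 without control replicate 2. With normexp background correction the Elavl3 difference was 0.155 ± 0.219 (SE).

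Gap43 and Th showed small differences on arrays that agreed well. Gap43 had log2 signals of 1.35 and 1.45 in knockout kidneys, against 1.20 and 1.39 in control kidneys. Its log2 difference was 0.10 ± 0.094 (SE), with a 95% confidence interval of -0.16 to 0.37 (limma, adjusted p = 0.656). The groups overlapped. Th had log2 signals of 0.11 and 0.11 in knockout kidneys, against 0.073 and 0.20 in control kidneys. Its log2 difference was -0.027 ± 0.071 (SE), the smallest in size of the 9 genes, and its 95% confidence interval of -0.23 to 0.17 leaves room for a difference of either sign (limma, adjusted p = 0.884). Without control replicate 2 it was 0.036. The Th signal of control replicate 2 exceeded that of control replicate 1 by 0.13.

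**Figure D2:**
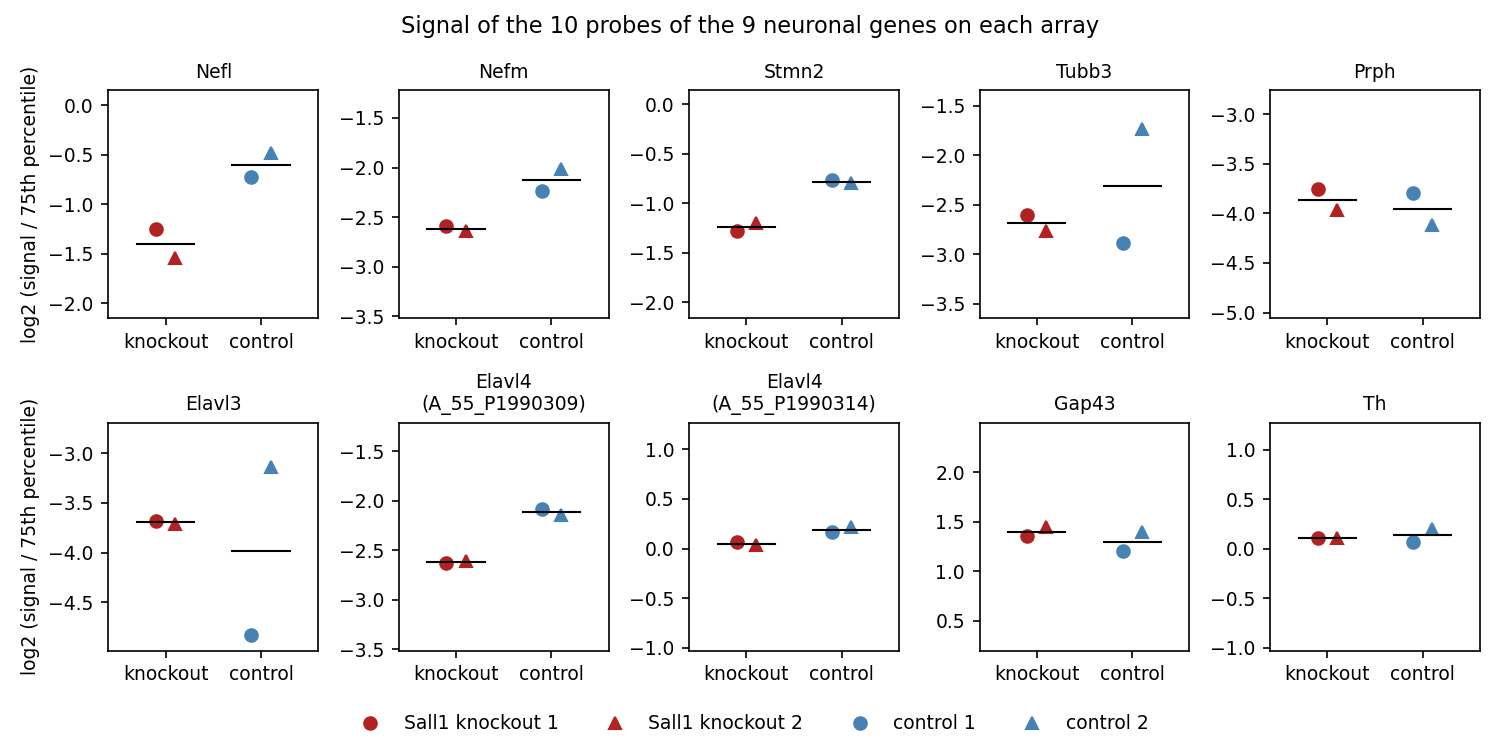
Log2 signal over the array 75th percentile for the 10 probes, with Sall1 knockout arrays in red left of control arrays in blue, circles for replicate 1, triangles for replicate 2 and lines for group means; all panels span the same log2 range. Nefl, Nefm, Stmn2 and both Elavl4 probes lie lower on the knockout arrays, while the control arrays of Tubb3 and Elavl3 lie 1.14 and 1.69 apart.

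Counted together, 0 of the 9 genes passed at an adjusted p under 0.05 in limma, as did 0.0% of all genes tested in either direction. At an unadjusted p under 0.05, 3 of the 9 genes were lower in the knockout kidneys, namely Nefl, Nefm and Stmn2, against 5.84% of all genes tested, and 0 were higher, against 6.85%. In 4 of the 9 genes (Nefl, Nefm, Stmn2 and Elavl4) the knockout arrays were the 2 lowest, against 27.4% of all genes tested, and in 0 of the 9 they were the 2 highest, against 21.8%. A difference of at least 1.5-fold without overlap was seen for Nefl alone, against 1.04% of all genes tested in the lower direction and, with 0 of the 9, 2.5% in the higher direction. The sign was negative in 6 of the 9 genes, against 53.2% of all genes tested. The median log2 difference was -0.14 over the 9 genes and -0.011 over all genes tested. With the trended and robust prior, limma called 1 of the 9 genes lower, Nefl, against 0.622% of all genes tested, and 0 higher, against 0.538%. With normexp correction it called 0 of the 9 in either direction, against 0.0797% lower and 0.0638% higher, and at an adjusted p under 0.1 likewise 0, against 0.0518% and 0.0558%. All 10 probes were well above background on all 4 arrays, so no gene of the 9 entered through 1 group alone.

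The relatives of these genes, 33 in 6 families, included genes of either sign. Without overlap, 9 of 32 tested were lower and 14 higher in the knockout kidneys, against 27.4% and 21.8% of all genes tested. Of the 32, 0 passed over all genes tested in limma, and their median log2 difference was 0.052. At an unadjusted p under 0.05, 3 were lower and 4 higher, against 5.84% and 6.85% of all genes tested. Of the stathmins, Stmn4, a neuronal paralogue of Stmn2, had log2 signals of -1.07 and -1.08 in knockout kidneys, against -2.0 and -1.71 in control kidneys. It was 1.71-fold higher, opposite to Stmn2, with no overlap of the groups (log2 difference 0.78 ± 0.12, SE; limma, adjusted p = 0.227). Stmn3 differed by 0.31 ± 0.12, and Stmn1, the stathmin of dividing cells, by -0.14 ± 0.057.

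The ELAV paralogue Elavl2 had the sign of Elavl4. Its log2 signal was -1.86 and -1.89 in knockout kidneys and -1.20 and -1.27 in control kidneys, and it was 1.56-fold lower (log2 difference -0.64 ± 0.061, SE; limma, adjusted p = 0.17). Elavl1, the paralogue made in nearly all cells, differed by 0.0090 ± 0.090. Among intermediate filament genes Des, which encodes the desmin of muscle cells, was 1.43-fold lower without overlap, and Nes, which encodes the nestin of progenitor cells and podocytes, was 1.17-fold higher without overlap (limma, adjusted p = 0.272 and 0.323). Nefh, the heavy neurofilament chain, differed by 0.12 ± 0.17 (SE), Ina, the alpha-internexin of axons, by -0.10 ± 0.23, Vim by 0.10 ± 0.070, Synm by -0.071 ± 0.061 and Gfap, well above background on 3 of 4 arrays, by 0.31 ± 0.30. Of the filament genes of axons, the light and medium chains were thus the ones whose groups did not overlap.

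Beta tubulins other than Tubb3 differed by -0.060 (Tubb4a) to 0.29 (Tubb1) on the log2 scale. Without overlap, 4 of 7 were higher in the knockout kidneys, namely Tubb1, Tubb2a, Tubb2b and Tubb6, against 21.8% of all genes tested, and 2 of 7 were lower, namely Tubb4a and Tubb5, against 27.4%. Tubb2a was 1.19-fold higher (limma, adjusted p = 0.365), Tubb2b, Tubb6, Tubb4b and Tubb5 differed by 0.15, 0.18, -0.022 and -0.024, and 0 of 7 passed in limma. Of the growth cone proteins related to GAP43 by their place at the membrane, Marcks differed by 0.13 ± 0.074 (SE), Basp1 by 0.037 ± 0.087 and Marcksl1 by -0.18 ± 0.094.

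**Figure D3:**
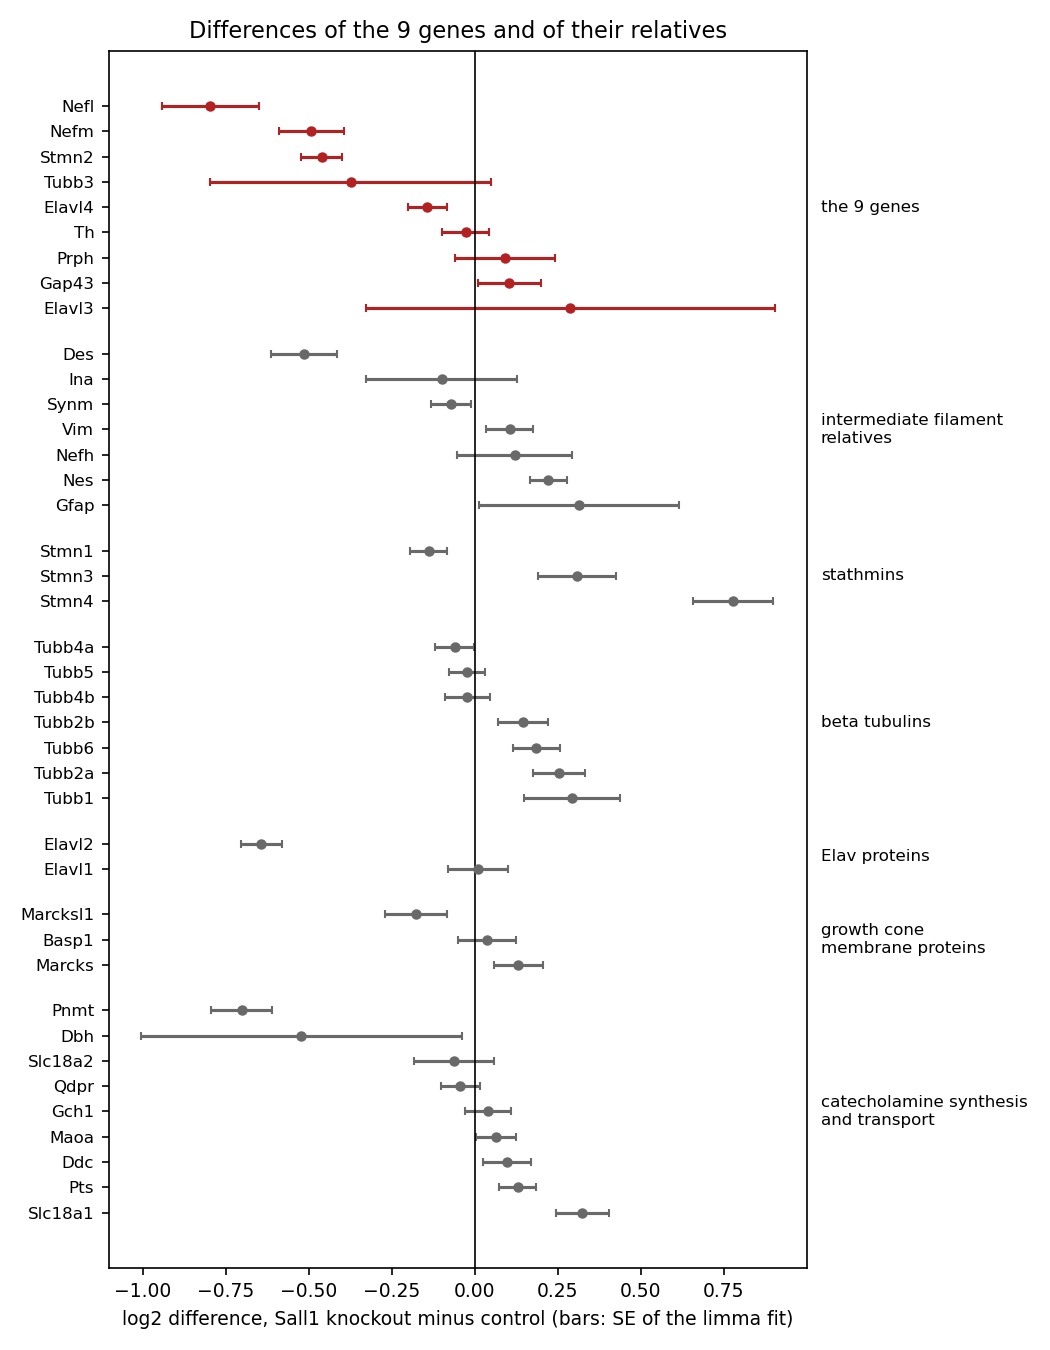
Log2 difference, Sall1 knockout minus control, with bars of 1 SE from the limma fit, for the 9 genes (red) and the relatives reported here (grey) by family. Nefl, Nefm, Stmn2 and Elavl4 lie left of 0 with bars that do not reach it, and the bar of Gap43, to the right, just falls short of 0. Among the relatives Pnmt, Elavl2, Dbh and Des lie furthest to the left, and Stmn4 lies to the right at 0.78.

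Of the genes that act with Th in making and moving catecholamines, 10 of 11 were tested, and Slc6a2, the noradrenaline transporter of sympathetic nerves, was not well above background on both arrays of either group. Pnmt, which converts noradrenaline to adrenaline, had log2 signals of -2.64 and -2.80 in knockout kidneys, against -1.95 and -2.08 in control kidneys. It was 1.63-fold lower without overlap (log2 difference -0.70 ± 0.093, SE; limma, adjusted p = 0.201). Dbh, which makes noradrenaline from dopamine, had log2 signals of -3.21 and -3.52 in knockout kidneys, against -3.48 and -2.19 in control kidneys. The groups overlapped, and the control arrays differed by 1.29 (limma, adjusted p = 0.664). Slc18a1, a vesicular monoamine transporter, was 1.25-fold higher without overlap (limma, adjusted p = 0.323), and Slc18a2, its paralogue of sympathetic neurons, differed by -0.063 ± 0.12 (SE). Ddc, Gch1, Pts, Qdpr and Maoa differed by between -0.044 and 0.13.

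The control arrays themselves differed in some genes of the neuronal lists. On control replicate 2, 2 of the 9 genes, Tubb3 and Elavl3, were at least 2-fold above control replicate 1, against 0.917% of all genes tested. That share covers genes of all signal levels. Beyond Dbh, 3 of 17 tested genes of the autonomic list stood at least 2-fold above on the same array, among them Hand2, a transcription factor of sympathetic neurons, and Insm1, a factor of sympathoadrenal precursors. Hand2 had log2 signals of -3.66 and -3.60 in knockout kidneys and -3.87 and -2.86 in control kidneys. Insm1 had -3.99 and -3.37 in knockout kidneys and -4.32 and -2.76 in control kidneys. In both Hand2 and Insm1, as in Tubb3, Elavl3 and Dbh, the knockout values lay between the control values or close to the lower one. These genes were dim, with log2 signals from -4.83 to -1.74 over the arrays. Between the knockout arrays 0 of the 9 genes and 0 of the 17 autonomic genes lay 2-fold apart, against 0.941% of all genes tested. Both counts are near that share. Of other lists, 5 of 13 liver and gut genes and 10 of 12 erythroid genes stood at least 2-fold above on control replicate 2. Between the knockout arrays, 5 of 12 erythroid genes likewise stood at least 2-fold above on replicate 2. Of 27 pan-neuronal genes 0 stood 2-fold above on control replicate 2, and of 13 skeletal muscle genes 0 did. Of the skeletal muscle genes, 7 of 13 stood at least 2-fold below on control replicate 2, against 0.622% of all genes tested. Th and Slc18a2 were higher on control replicate 2 by 0.13 and 0.25. Nefl and Nefm were also higher on control replicate 2 than on control replicate 1, by 0.23 and 0.22, whereas Stmn2 was lower by 0.033.

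**Figure D4:**
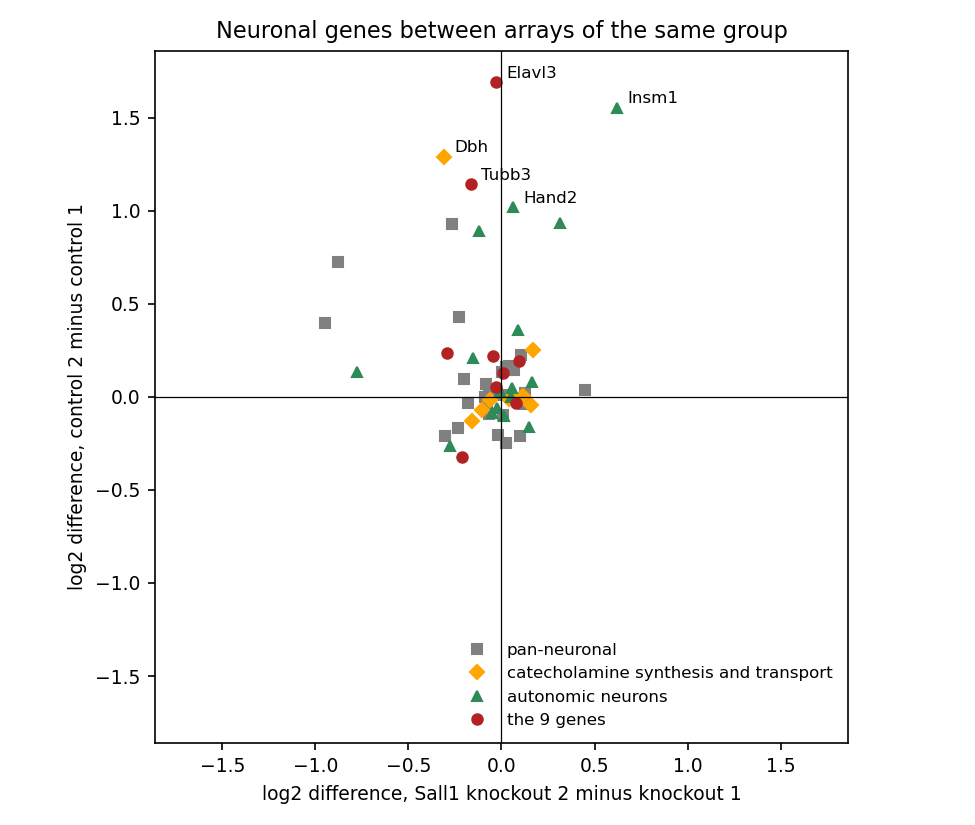
Log2 difference between the control arrays (vertical, control 2 minus control 1) against that between the Sall1 knockout arrays (horizontal, knockout 2 minus knockout 1) for genes of the neuronal lists that are reported here; genes with a gap of at least 1 on the vertical axis are named. Elavl3, Tubb3, Dbh, Insm1 and Hand2 lie 1.02 to 1.69 above 0 between the control arrays and within 0.62 of 0 between the knockout arrays.

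Over 17 tested genes of autonomic neurons the median difference was 0.026 (log2), 3 lower and 2 higher at an unadjusted p under 0.05 and 0 passing in limma. The shares of all genes tested at that unadjusted p were 5.84% lower and 6.85% higher. The lower ones were Ngfr, the p75 neurotrophin receptor, by 1.30-fold, Sst by 1.26-fold and Eya2 by 1.24-fold, and the higher ones included Gata2 by 1.27-fold (limma, adjusted p = 0.217, 0.251, 0.271 and 0.272). Of the list, 6 genes were not well above background on both arrays of either group, namely Hand1, Isl1, Tbx20, Chrna3, Vip and Hmx3. The summed signal of the autonomic list, as a multiple of the 75th percentile, was 19.5 and 20.5 in knockout kidneys and 20.4 and 21.7 in control kidneys. Gata3 weighs most in it, followed by Ngfr and Eya2. The log2 signals of Gata3 were 2.96 and 3.13 in knockout kidneys and 2.91 and 2.99 in control kidneys. Gata3 is also on the list of kidney genes, so the sum does not measure autonomic neurons alone.

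For pan-neuronal genes, 27 tested of 30, the median difference was -0.0010 (log2), with 3 lower and 3 higher at an unadjusted p under 0.05 and 0 passing in limma. At that unadjusted p, 5.84% of all genes tested were lower and 6.85% higher. Lower were Dcx, the doublecortin gene of young neurons, by 1.31-fold and Rtn1, a reticulon gene, by 1.25-fold. Higher were Syt1, the synaptotagmin that senses calcium at synapses, by 1.59-fold and Mapt, which encodes tau, by 1.21-fold (limma, adjusted p = 0.339, 0.323, 0.232 and 0.288). The summed signal of the list was 68.2 and 65.4 in knockout kidneys and 68.3 and 67.0 in control kidneys. The groups overlapped, and the sum was not tested. Snap25, the brightest gene of the list, weighs most in it, with log2 signals of 4.92 and 4.85 in knockout kidneys and 5.02 and 4.93 in control kidneys.

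Sensory neuron genes had a median of 0.13 over 7 tested of 13, and Pou4f2, Prrxl1, Prdm12, Tlx3 and Tac1 did not pass the background filter. Calca, which encodes calcitonin and its related peptide, was 1.72-fold higher and Ntrk2 1.18-fold higher, each without overlap. Pou4f1 was lower, also without overlap, by -0.22 ± 0.11 (SE; limma, adjusted p = 0.317, 0.381 and 0.484 for the 3 genes). Schwann cell and glial genes had a median of 0.023 over 10 tested of 13, and Foxd3 and Cdh19 were among those that did not pass the background filter. S100b, a calcium-binding protein gene of glia and other cells, was 2.12-fold higher without overlap, Ednrb 1.22-fold higher without overlap, and Mbp, of myelin, differed by -0.10 (limma, adjusted p = 0.191, 0.368 and 0.706). The summed signal of the Schwann cell list was 6.40 and 6.14 in knockout kidneys and 6.18 and 6.45 in control kidneys.

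Markers of tissues next to the kidney moved with the groups and between arrays, and their part in the values of the 9 genes was not tested. Over all genes tested, 53.2% had a negative difference. Of liver and gut genes 12 of 13 tested had a positive difference and 0 passed in limma (Trf, Ttr, Afp and Apoa1 were 2.27-, 3.49-, 2.76- and 2.98-fold higher), with a summed signal of 44.3 and 40.8 in knockout kidneys and 14.0 and 20.7 in control kidneys. Of skeletal muscle genes 13 of 13 had a positive difference and 0 passed (Tnnt3, Acta1, Myl4 and Myl1 were 1.52-, 2.48-, 2.22- and 2.39-fold higher), with 103 and 70.7 in knockout kidneys and 58.5 and 26.0 in control kidneys. Adrenal cortex genes summed to 21.4 and 24.8 in knockout kidneys and 19.8 and 21.2 in control kidneys, with Cyp11a1 and Cyp11b1 not passing the background filter. Mc2r, the corticotropin receptor, was 1.53-fold lower without overlap (limma, adjusted p = 0.18). Cyp17a1 and Mrap were higher, also without overlap, by 0.41 and 0.56, and Star differed by -0.19. Of the kidney genes, Osr1, Six2 and Ret differed by -0.85, -0.51 and -0.28 and Cdh16 by 0.45, and 0 of 10 passed. Erythroid genes summed to 1280 and 2230 in knockout kidneys and 1100 and 2060 in control kidneys. Of these, 10 of 12 were at least 2-fold higher on control replicate 2 than on control replicate 1, against 0.917% of all genes tested. On knockout replicate 2, 5 of 12 were at least 2-fold higher than on knockout replicate 1. The share of all genes tested 2-fold apart between the knockout arrays, in either direction, was 0.941%. Klf1, Gata1 and Tfrc differed by 0.99, 0.78 and -0.14, and 0 of 12 passed.

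The genes whose pattern lay closest to the mean profile of the 9 genes were named by the root mean square distance of centred log2 values over the 4 arrays, among 14121 named genes well above background on all arrays. The mean profile was -0.067 and -0.13 on the knockout arrays and -0.083 and 0.28 on the control arrays, so it stood out on control replicate 2. Closest were Gnat2 at a distance of 0.014, Dcun1d3 at 0.021, H2ac8 at 0.027, En2 at 0.028, Sema3g at 0.031 and Ninj2 at 0.031. In all, 398 genes lay within 0.1 of the profile, and among the 9 genes themselves the distance ran from 0.115 for Elavl4 and 0.125 for Th to 0.53 for Elavl3. The closest genes were picked by this same distance out of 14121, so their smaller distances say nothing about the 9 genes.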

How the data were processed

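Total RNA of 4 embryonic kidney samples was hybridised to 1-colour Agilent arrays of design 028005. Scanner files were deposited with the processed signal, an intensity corrected for background by Feature Extraction 10.7.3.1 and not scaled between arrays, per the file headers. For 55249 single-spot probes, 100% of the deposited series table equalled this intensity within 1%, with medians of 47.8 and 45.8 in knockout and 52.3 and 47.1 in control columns. There was 1 slide and 1 scan, hence no batch to block on.

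Signals were divided by the 75th percentile of each array (535 and 523 in knockout, 600.0 and 549 in control arrays) and set to log2. Control and outlier spots were left out and spots of a probe averaged. Between 60.6% and 64.2% of spots were well above background and 0 were saturated, and the background filter, which asks for both arrays of a group, left 34264 probes. Symbols came from RefSeq accessions of assembly GRCm38.p6 (26413 of 55681 probes matched), and the probe with the highest mean stood for a gene. The test was limma 3.58.1 under R 4.3.3 (default prior, 2 residual and 1.8 prior degrees of freedom, two-sided, Benjamini-Hochberg over all genes tested), which was tested on simulated data. Precision is limited by having 2 arrays per group.

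The members and lists were chosen with earlier results of these data known. Named were Sall1, the 9 genes, the tested genes of their families, up to 4 genes of each other list by unadjusted p, and the 6 closest profiles, without RIKEN, Gm and LOC names. Some genes that this rule names are not reported here. Alternatives were normexp correction (offset 50, on the median signal), quantile or median normalization, other background filters, outlier spots kept, the mean over probes, a trended and robust prior, array weights, the value table, leaving out single arrays, a limit of 2-fold, an adjusted p under 0.1 and, added after the data were seen, the other Elavl4 probe for the gene.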

Additional observations from a re-analysis of the deposited data

How the results depend on the processing

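No paired analysis was possible because the labels give the groups no shared replicate numbers. Over 14 alternatives Nefl, Nefm, Stmn2, Elavl4 and Gap43 kept the sign of their difference, with ranges of -0.94 to -0.60, -0.60 to -0.27, -0.50 to -0.37, -0.33 to -0.082 and 0.0090 to 0.20. The other Elavl4 probe, an alternative chosen after the data were seen, gave -0.51. Nefl passed in limma under the trended and robust prior alone (difference -0.80, adjusted p = 0.0467, range over alternatives 0.0467 to 0.528), which made 1 of the 9 genes called lower. That prior called 135 genes higher and 156 lower over all genes, normexp correction 16 and 20, and an adjusted p under 0.1 gave 14 and 13, against 0 and 0 in limma with the default prior, where 1719 and 1465 had an unadjusted p under 0.05. Leaving out 1 array reversed 4 genes, with ranges of -0.56 to 1.13 for Elavl3, -0.95 to 0.20 for Tubb3, -0.071 to 0.25 for Prph and -0.090 to 0.036 for Th. Without control replicate 2 the difference was 1.13 for Elavl3, 0.20 for Tubb3, -0.071 for Prph and 0.036 for Th, and without control replicate 1 it was -0.56 for Elavl3 and -0.95 for Tubb3. Prph was -0.014 without Sall1 knockout replicate 1.

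Of the 9 genes, 4 lay beyond both arrays of the other group in the lower direction, and between 4 and 7 with 1 array left out, 7 without control replicate 1. In the higher direction 0 did, against 1 with normexp correction and 1 to 4 with 1 array left out, 4 without control replicate 2, where 1 array stands for a group. At 1.5-fold the count was 1 lower and 0 higher, 1 to 3 lower and 0 to 1 higher with 1 array left out, 3 lower without control replicate 1, and 0 lower at a 2-fold limit. Over all genes, 626 higher and 262 lower at 1.5-fold became 174 and 58 with normexp correction, 2265 and 677 with no background filter, 201 and 77 at a 2-fold limit, 148 lower with probes above background on all 4 arrays, and 831 to 870 higher and 376 to 491 lower with 1 array left out. The cause of these shifts was not tested, apart from the limit and the number of genes or arrays that an alternative itself sets. With 1 array in a group, that array is assumed to vary like those of the other group.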
